A study of Homo sapiens with 10 samples.

Results

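The PIPOX locus on human chromosome 17 was examined in Rh30 cells, an established alveolar rhabdomyosarcoma line, by chromatin immunoprecipitation sequencing (ChIP-seq) of histone H3 acetylated at lysine 27 (H3K27ac). The locus was taken as every peak of the deposited table with a start from 27250000 to 27500000 (hg19), which gave 27 of 42067 peaks, all 27 of which passed the filter on low counts. A gene body of about 27370000 to 27384000 held 3 of these peaks, 9 lay before it and 15 after it. The other 31 peaks with starts from 27000000 to 28000000 served for comparison. The peaks were chosen by position, but the locus itself was selected on H3K27ac counts of these libraries, and which comparison drew attention to it is not recorded. Its values are therefore a description in every comparison, and no p-value is given for its peaks.

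The cells carried PAX3-FOXO1-FKBP, the fusion transcription factor of this tumour joined to a degron that the ligand dTAG47 targets for degradation. The treated groups received 500 nM dTAG47 for 2 h, 4 h or 24 h, and the control group received DMSO, the solvent, with no time in its label. Each group had 2 H3K27ac libraries, called A and B, and the DMSO cells carried the same tagged fusion. The 2 DMSO input libraries listed in the labels were not analysed here. The same DMSO libraries served every comparison, and culture time and treatment time cannot be told apart. The libraries held between 3540104 and 5001652 counts in peaks. The counts do not measure the fusion protein, and the table names no genes, so neither its loss nor the cell type could be checked. A lower count may mean fewer cells with the mark or less of it per cell, which cannot be told apart.

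PIPOX encodes a peroxisomal oxidase that converts sarcosine to glycine and also acts on L-pipecolate, an intermediate of lysine breakdown. The enzyme releases hydrogen peroxide, which peroxisomes break down. PAX3-FOXO1 binds DNA mainly through the paired domain and the homeodomain of PAX3, and it is known to act at enhancers that carry H3K27ac, often at a distance from the genes they serve. H3K27ac marks active promoters as well as active enhancers. In the RefSeq gene order SEZ6, which encodes a neuronal membrane protein, precedes PIPOX, and MYO18A, which encodes an unconventional myosin, follows it. That order comes from GRCh38, so peaks on hg19 were not assigned to these neighbours.

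RefSeq places PIPOX on the plus strand, so peaks of lower coordinate lie upstream of it. The promoter is shown because a peak overlaps the approximate gene start and the homeodomain is one of the DNA-binding parts of the fusion. It comes from RefSeq on GRCh38.p14, chr17:29042891-29043190, plus strand, from 250 bases before the gene start to 50 after it, and capitals mark the homeodomain core ATTA, here read as TAAT:
PIPOX promoter: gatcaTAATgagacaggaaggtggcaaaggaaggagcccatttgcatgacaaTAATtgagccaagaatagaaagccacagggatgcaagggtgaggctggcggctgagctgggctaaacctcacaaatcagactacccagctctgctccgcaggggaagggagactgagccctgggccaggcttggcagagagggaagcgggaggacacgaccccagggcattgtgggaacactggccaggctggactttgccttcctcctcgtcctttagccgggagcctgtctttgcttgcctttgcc
The 2 matches begin 245 and 198 bases before the gene start. Both strands were searched, and 50.2% of 35116 RefSeq promoters of this length hold ATTA. The longer homeodomain letters TAATTA (in 4.84% of promoters) and TAAT and ATTA parted by any 2 bases (in 0.45%) were not in this window. Nor were GTCACG, a paired-domain core (9.02%), the E-box CAGCTG (17.9%) or the forkhead letters TGTTTAC (3.42%). ATTA can overlap both of these longer patterns.

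H3K27ac was lower at a few separate sites around PIPOX from 2 h on, while at the gene start peak treated and DMSO libraries overlapped. In edgeR, with peaks called at an adjusted p under 0.05 over all peaks tested, 5 of the 27 peaks were called lower and 0 higher after 2 h, when 1.03% of all 41791 peaks tested were called lower and 0.194% higher. After 4 h it was 6 lower and 0 higher, beside 1.67% lower and 0.567% higher of all peaks. After 24 h it was 8 lower and 2 higher, beside 4.88% lower and 3.46% higher of all peaks. DESeq2, run as an alternative, called 2 of the 27 lower after 2 h and 1 lower after 4 h. After 24 h it called 6, of which 5 were lower and 1 higher. Over all peaks, in both directions together, DESeq2 called 24 after 2 h, 79 after 4 h and 485 after 24 h. Relative to DMSO the 27 peaks had a median log2 change of -0.13 (2 h), -0.09 (4 h) and -0.30 (24 h), and all peaks tested had one of 0.01, 0.00 and 0.00. At 24 h both treated libraries lay below both DMSO libraries at 16 of the 27 peaks, above both at 5 and overlapped them at 6. Such separation occurred downward at 25.1% and upward at 25% of all peaks tested. Since these results were known when the locus was proposed, nothing is read from its counts against the background.

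**Figure D1:**
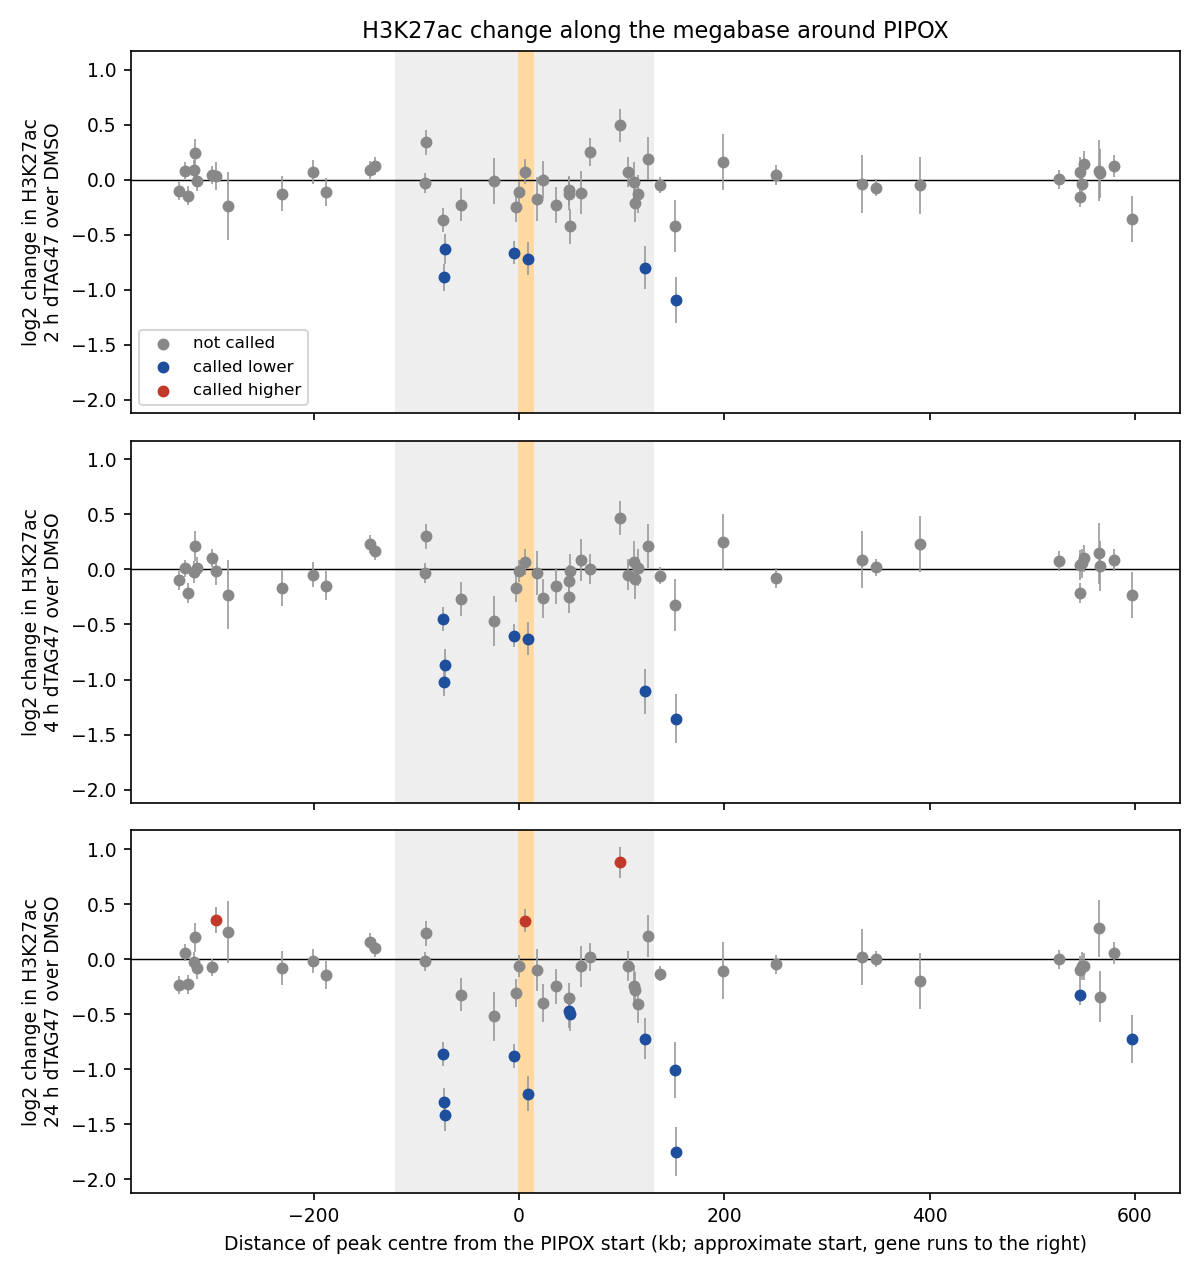
Log2 change in H3K27ac after 2 h, 4 h and 24 h of dTAG47 over DMSO (y axis) for the 58 peaks of the megabase, by distance from the approximate PIPOX start (x axis, kb). Bars are standard errors derived from edgeR's log2 changes and F statistics, grey shading is the 27-peak window and orange the gene body. The called losses at 2 h and 4 h sit at a few separate sites, including a cluster of neighbouring peaks 72.4 to 74.5 kb before the start. The peak at the gene start lies near 0 in each panel.

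The peak on chromosome 17 at 27369923 to 27370323 overlaps the approximate start of PIPOX. It had 64.1 and 58.5 CPM (counts per 1000000 in peaks, scaled between libraries) in DMSO libraries A and B, 54.2 and 58.7 after 2 h, 59.4 and 61.8 after 4 h, and 58.2 and 59.4 after 24 h. Treated and DMSO libraries overlapped at every time. The log2 changes were -0.11 (SE 0.10) at 2 h, -0.01 (SE 0.10) at 4 h and -0.06 (SE 0.10) at 24 h, and none was called. Its mean level exceeded that of 90.9% of the peaks tested.

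Inside the gene, the peak 9.1 kb after the start, at 27378948 to 27379348, was lower at all 3 times. It had 35.0 and 32.7 CPM in DMSO libraries, 20.4 and 20.7 after 2 h, 24.8 and 19.1 after 4 h, and 14.7 and 14.3 after 24 h. Every treated library lay below both DMSO libraries, and the 24 h libraries were the lowest. The log2 change was -0.72 (SE 0.15) at 2 h, -0.63 (SE 0.15) at 4 h and -1.22 (SE 0.16) at 24 h, when the level was 0.429 of that in DMSO. Each of the 3 values was called. The 24 h change is lower than that of all but 0.656% of peaks tested. The calls at 2 h and 4 h rested on single libraries: without DMSO library A neither was kept (log2 change -0.67 after 2 h and -0.58 after 4 h). The 2 h call was also lost without 2 h library B (-0.73) and the 4 h call without 4 h library B (-0.45), and DESeq2 made neither.

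The third peak of the gene body, 6.1 kb after the start at 27375919 to 27376319, went the other way at 24 h. It had 52.7 and 41.2 CPM in DMSO libraries, 46.2 and 51.8 after 2 h, 49.4 and 49.1 after 4 h, and 61.6 and 58.0 after 24 h. The 24 h libraries lay above both DMSO libraries, while those of 2 h and 4 h lay between them. The log2 change was 0.07 (SE 0.11) at 2 h, 0.07 (SE 0.12) at 4 h and 0.35 (SE 0.11) at 24 h, and only the last was called. Leaving out DMSO library B ended that call, as did leaving out 24 h library A (0.31), and DESeq2 did not make it. Its 3 values depended on which DMSO library was used. Without DMSO library A they were 0.26 (2 h), 0.26 (4 h) and 0.54 (24 h, called), and without DMSO library B they were -0.09 (2 h), -0.10 (4 h) and 0.19 (24 h).

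**Figure D2:**
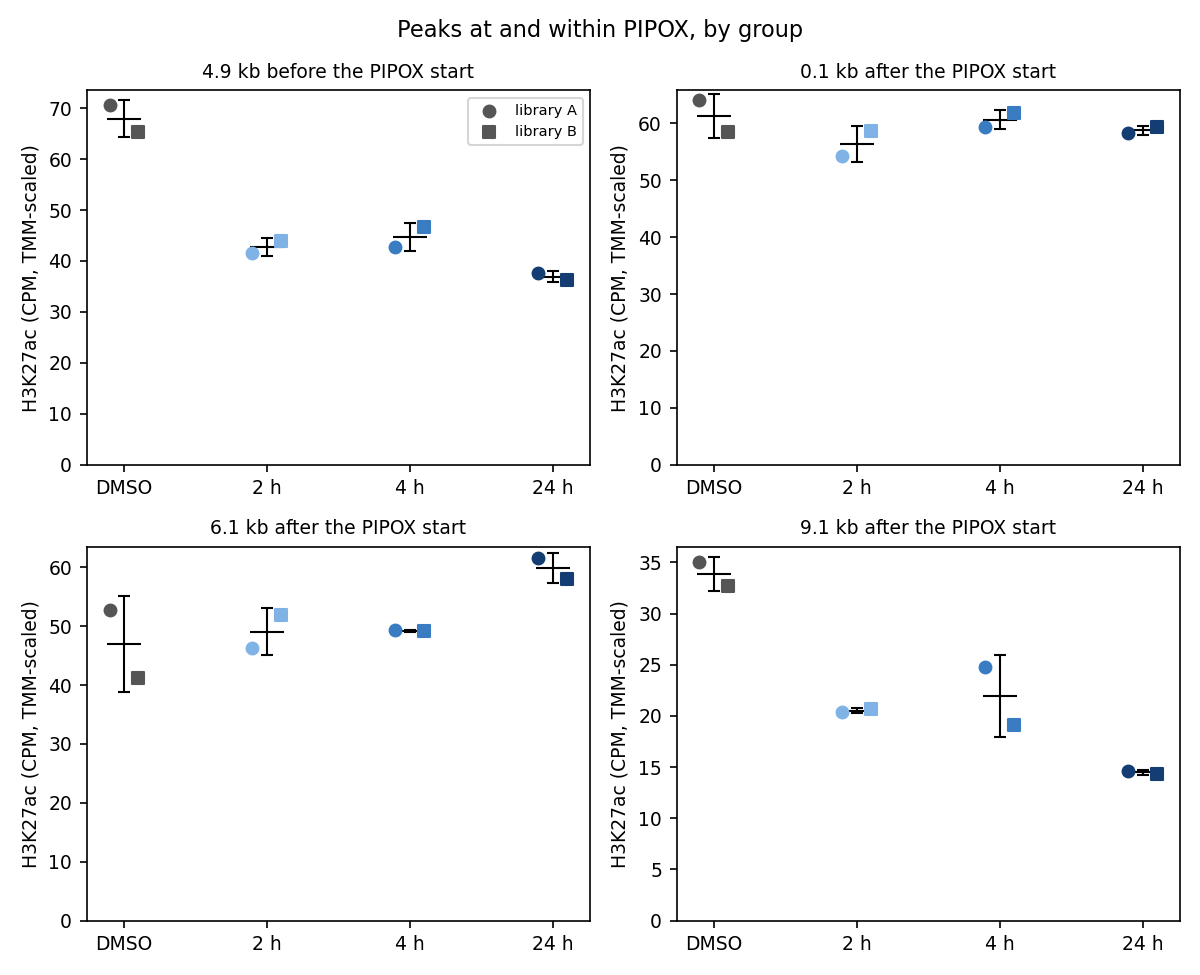
H3K27ac level (y axis, CPM scaled by TMM, from 0) of the called upstream peak and the 3 gene body peaks in DMSO and after 2 h, 4 h and 24 h of dTAG47 (x axis). Points are libraries A and B, horizontal marks the mean and bars the SD of 2 libraries; the peaks 4.9 kb before and 9.1 kb after the start are lower in all treated libraries, the peak at the start overlaps DMSO, and the peak 6.1 kb after the start is highest at 24 h.

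Taken as a sum, the 3 gene body peaks hid the loss 9.1 kb after the start. They also hid the less stable rise 6.1 kb after it, called at 24 h only. Their summed level averaged 142 ± 13.7 CPM in DMSO, 126 ± 7.36 at 2 h, 132 ± 2.52 at 4 h and 133 ± 1.97 at 24 h (SD, n = 2 each). The 4 h and 24 h means lay within 1 DMSO SD of the DMSO mean and the 2 h mean just beyond it. The make-up of the sum is given as shares, which need no scaling between libraries. The peak 9.1 kb after the start held 23.1% and 24.7% of the gene body counts in DMSO libraries, 16.9% and 15.8% after 2 h, 18.6% and 14.7% after 4 h, and 10.9% and 10.9% after 24 h.

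The peak 6.1 kb after the start held a larger share in both 24 h libraries than in DMSO. Shares of a sum are tied together and rise when another peak falls, so this is no separate measure of a gain. It had 34.7% and 31.1% in DMSO, 38.3% and 39.5% after 2 h, 36.9% and 37.8% after 4 h, and 45.8% and 44.0% after 24 h. The share of the peak at the gene start varied between 42.2% and 47.5% over the 8 libraries. Within each library, the count of the peak 9.1 kb after the start divided by that of the peak at the start was 0.547 and 0.558 in DMSO, 0.376 and 0.353 after 2 h, 0.417 and 0.309 after 4 h, and 0.252 and 0.241 after 24 h.

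**Figure D3:**
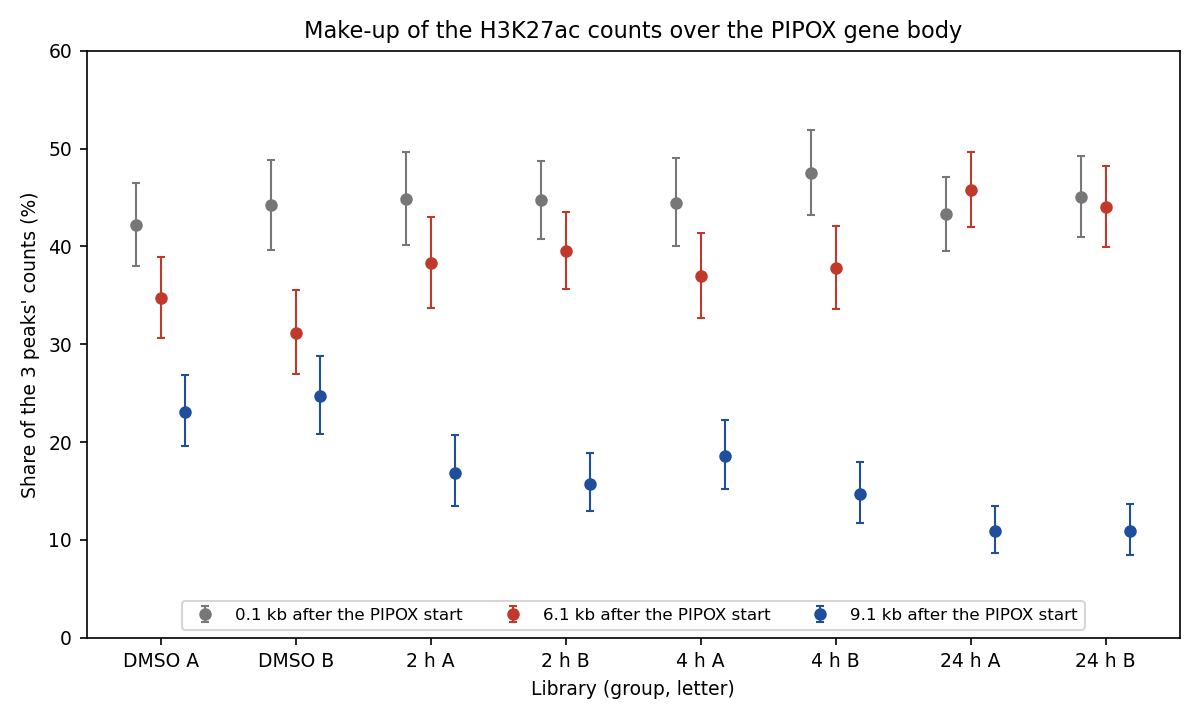
Share of the counts of the 3 PIPOX gene body peaks held by each peak (y axis, percent, from 0) in the 8 libraries (x axis). Points are library values and bars exact 95% Clopper-Pearson intervals for counting error; the peak 9.1 kb after the start holds 23.1% and 24.7% in DMSO and 10.9% in each 24 h library.

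Upstream of the gene, the nearest called peak was 4.9 kb before the start, at 27364932 to 27365332. It had 70.6 and 65.3 CPM in DMSO libraries, 41.6 and 44.0 after 2 h, 42.8 and 46.7 after 4 h, and 37.6 and 36.2 after 24 h. No treated library reached the lower DMSO library. The log2 change was -0.66 (SE 0.11) at 2 h, -0.60 (SE 0.11) at 4 h and -0.88 (SE 0.11) at 24 h, each called, and 75.5% of the 24 h change was present at 2 h. In edgeR its calls were kept without any single library, and DESeq2 did not make the one after 4 h. Divided by the count of the peak at the start, its count was 1.10 and 1.12 in DMSO, 0.766 and 0.749 after 2 h, 0.720 and 0.755 after 4 h, and 0.646 and 0.609 after 24 h. Between these neighbours, a peak 3.0 kb before the start was not called at any time (log2 change -0.30, SE 0.13, at 24 h), and its 24 h libraries overlapped DMSO.

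Farther upstream, 3 peaks within 2476 bases, from 27295299 to 27297775 and 72.4 to 74.5 kb before the start, were lower together. The middle one, at 27296646 to 27297046, had 55.2 and 58.2 CPM in DMSO libraries, 31.6 and 29.9 after 2 h, 26.99 and 28.8 after 4 h, and 22.4 and 23.9 after 24 h. Its DMSO libraries stood well above all 6 treated libraries, which were lower with each later time. The log2 change was -0.89 (SE 0.12) at 2 h, -1.02 (SE 0.12) at 4 h and -1.30 (SE 0.12) at 24 h, all called, with 68.4% of the 24 h change present at 2 h. These calls were kept without any single library and by DESeq2.

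The peak on its gene side, at 27297375 to 27297775, had 35.9 and 41.5 CPM in DMSO libraries, 23.7 and 26.0 after 2 h, 21.5 and 20.8 after 4 h, and 12.9 and 16.4 after 24 h. With a log2 change of -1.41 (SE 0.15) at 24 h it was the lowest of the 27 relative to DMSO. At 2 h its log2 change was -0.63 (SE 0.14), 44.6% of that at 24 h, and that call ended on leaving out either DMSO library B (-0.52) or 2 h library A (-0.57). DESeq2 called it at 24 h alone. The peak on the far side, at 27295299 to 27295699, had 60.9 and 66.8 CPM in DMSO libraries, 55.0 and 45.0 after 2 h, 49.6 and 43.9 after 4 h, and 36.1 and 34.1 after 24 h. It was not called at 2 h (log2 change -0.37, SE 0.11) but was at 4 h (-0.45) and 24 h (-0.86). Its 2 h value was -0.51 and called without 2 h library A, and -0.21 and not called without 2 h library B. The 4 h call ended on leaving out DMSO library B (-0.38) or 4 h library B (-0.36) and was not made by DESeq2. Both flanking peaks were also called lower in 24 h against 2 h cells, with log2 changes of -0.78 (SE 0.16) and -0.49 (SE 0.11). The middle peak was not called, but its log2 change of -0.41 (SE 0.14) was close to that of the far flanking peak. For single peaks, calls in this comparison were not checked under the alternatives. In that comparison 2 of the 27 peaks were called lower and 0 higher, against 2.49% and 1.69% of all peaks tested.

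Together the 3 upstream peaks held 16.1% and 18.2% of the counts of the 27-peak window in DMSO libraries, 13.3% and 12.4% after 2 h, 12.0% and 11.6% after 4 h, and 9.29% and 9.93% after 24 h. Their summed level was 152 and 166 CPM in DMSO, 110 and 101 after 2 h, 98.2 and 93.6 after 4 h, and 71.3 and 74.4 after 24 h. In these libraries the sum was therefore lower at each later time, with no overlap between groups. The 3 peaks were named for being among the lowest of the window by 24 h change in these same libraries. Low 24 h sums therefore follow in part from the choice, and the ordering is a description only. How often such an ordering occurs among all peaks tested is not given here. The step from 2 h to 4 h was small beside its error. In 4 h against 2 h cells the log2 changes were -0.085 (SE 0.112) at 27295299, -0.134 (SE 0.138) at 27296646 and -0.238 (SE 0.157) at 27297375. In that comparison 0 of all 41791 peaks tested were called. On the other side of this cluster, 91.0 kb before the start, the peak at 27278794 to 27279194 had log2 changes of 0.34, 0.30 and 0.24 at 2 h, 4 h and 24 h, none called, with all treated libraries above DMSO. Its neighbour at 27278074, the first peak of the window and its most acetylated, overlapped DMSO at every time (log2 change -0.02, SE 0.09, at 24 h).

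Downstream of the gene most of the 15 peaks had a negative log2 change at 24 h, as did 20815 of all 41791 peaks tested. Downstream peaks were called in both directions. The peak 97.9 kb after the start, at 27467693 to 27468093, was the one with the largest gain of the 27. It had 22.5 and 20.2 CPM in DMSO libraries, 26.97 and 32.4 after 2 h, 28.1 and 30.8 after 4 h, and 39.8 and 38.7 after 24 h. All treated libraries lay above DMSO and the 24 h libraries above the earlier ones. Its log2 change was 0.49 (SE 0.15) at 2 h, 0.47 (SE 0.16) at 4 h and 0.88 (SE 0.14) at 24 h, of which the last was called. DESeq2 called it at 24 h as well, and that call was kept without any single library in edgeR.

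The peak 123.1 kb after the start, at 27492912 to 27493312, lay outside the rule for named peaks by its low level and was chosen after its values were seen. It had 19.9 and 21.6 CPM in DMSO libraries, 12.1 and 11.7 after 2 h, 9.54 and 9.68 after 4 h, and 14.7 and 10.2 after 24 h. It was lowest at 4 h, where the log2 change was -1.11 (SE 0.21), against -0.80 (SE 0.19) at 2 h and -0.72 (SE 0.19) at 24 h. In 24 h against 4 h cells its log2 change was 0.39, which was not called, and 0 of the 27 peaks were called in either direction in that comparison, against 0.68% lower and 0.438% higher of all peaks tested. Its 2 h call was lost without any one of the 4 libraries compared (log2 change from -0.86 to -0.74), and its 24 h call without library B of either DMSO (-0.66) or 24 h (-0.50). DESeq2 called it at none of the 3 times.

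A pair of neighbouring peaks 48.8 and 49.6 kb after the start, at 27418591 and 27419436, were called lower at 24 h, with log2 changes of -0.47 (SE 0.15) and -0.50 (SE 0.16). The first, also outside the rule and named after its values were seen, had 29.9 and 25.0 CPM in DMSO libraries, 25.9 and 24.5 after 2 h, 24.3 and 26.6 after 4 h, and 21.6 and 17.7 after 24 h. The second had 26.5 and 25.9 CPM in DMSO libraries, 20.6 and 18.6 after 2 h, 26.99 and 25.1 after 4 h, and 17.04 and 20.2 after 24 h. In both, the 24 h libraries lay below DMSO, and the 4 h libraries overlapped it. The call of the first ended on leaving out either DMSO library A (-0.34) or 24 h library B (-0.35). That of the second ended on leaving out either DMSO library (-0.48 and -0.51) or 24 h library A (-0.37), and DESeq2 made neither call. The last peak of the window, at 27495517, had a log2 change of 0.22 (SE 0.19) at 24 h and was not called. The 17 peaks not called at 24 h included 14 with a negative log2 change. Of all 41791 peaks tested, 20815 had a negative log2 change at 24 h. The locus was selected on these counts, so nothing is read from this difference.

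**Figure D4:**
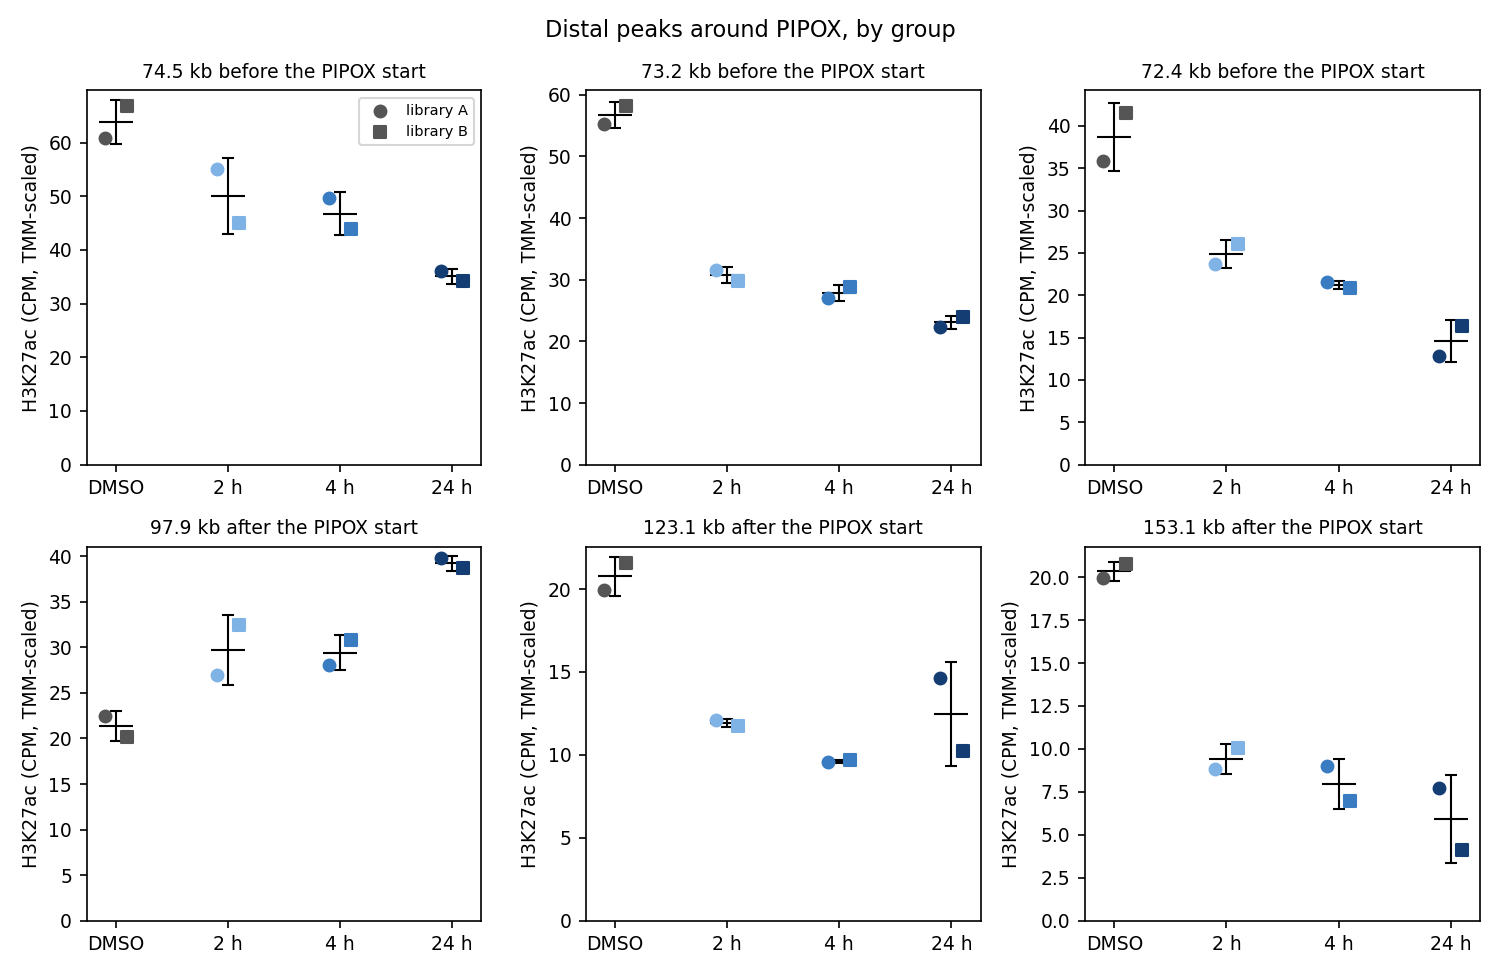
H3K27ac level (y axis, CPM scaled by TMM, from 0) of 6 called peaks away from the gene, in DMSO and after 2 h, 4 h and 24 h of dTAG47 (x axis). Points are libraries A and B, horizontal marks the mean and bars the SD of 2 libraries; the means of the 3 peaks 72.4 to 74.5 kb before the start are lower with each later time, the peak 97.9 kb after it is higher, and the peak 123.1 kb after it is lowest at 4 h.

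Summed, the 31 remaining peaks of the megabase averaged 1753 ± 3.32 CPM in DMSO, 1747 ± 12.3 at 2 h, 1750 ± 36.6 at 4 h and 1686 ± 14.2 at 24 h, while the 27 peaks around PIPOX averaged 930 ± 20.4, 822 ± 12.8, 813 ± 8.90 and 758 ± 13.5 CPM (SD, n = 2 each). The window thus held 35.0% and 34.3% of the megabase's counts in DMSO libraries, 32.3% and 31.6% after 2 h, 31.6% and 31.9% after 4 h, and 31.2% and 30.9% after 24 h. Every treated library was below both DMSO libraries. The window was selected on these counts and the rest was not, so this difference is a description only. The fall was not even over the window. Its 3 peaks 72.4 to 74.5 kb before the start summed to 152 and 166 CPM in DMSO and 71.3 and 74.4 after 24 h. These 3 peaks were named for their low 24 h change. Of the 31 peaks, 1 was called lower and 0 higher at 2 h and at 4 h, and 4 lower and 1 higher at 24 h. Of all peaks tested, 1.03% were called lower and 0.194% higher at 2 h. At 4 h it was 1.67% lower and 0.567% higher, and at 24 h 4.88% lower and 3.46% higher.

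The rule did not choose these 31 peaks, so their tests are given. The peak at 27522852 to 27523252, 153.1 kb after the PIPOX start, outside the window's upper bound, had 19.9 and 20.7 CPM in DMSO libraries, 8.81 and 10.0 after 2 h, 8.998 and 6.95 after 4 h, and 7.73 and 4.09 after 24 h. All 6 treated libraries lay below DMSO. It fell at each time, with log2 changes of -1.10 (SE 0.21, edgeR adjusted p = 0.00027) at 2 h, -1.36 (SE 0.22, adjusted p = 3.48e-06) at 4 h and -1.75 (SE 0.22, adjusted p = 2.12e-10) at 24 h. DESeq2 did not call it at 2 h (adjusted p = 0.474). Its neighbour at 27522010 fell at 24 h, to 4.75 and 7.73 CPM against 9.68 and 15.1 CPM in DMSO (log2 change -1.01, SE 0.25, edgeR adjusted p = 0.00325). That call ended on leaving out either DMSO library B (-0.65, adjusted p = 0.311) or 24 h library A (-0.68, adjusted p = 0.205), and DESeq2 did not make it (adjusted p = 0.263).

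The other changes of the megabase were smaller. A strong peak at 27916221 fell by 0.32 on the log2 scale (edgeR adjusted p = 0.0103) and one at 27967061 by 0.72 (adjusted p = 0.0184) at 24 h, and one at 27074155 rose by 0.36 (adjusted p = 0.0381). None of the 3 was called by DESeq2 (adjusted p from 0.327 to 0.609). In edgeR the first was not called on leaving out library B of DMSO (log2 change -0.27) or of 24 h (-0.25). The second was not called without DMSO library A (-0.52) or 24 h library A (-0.56), and the third without any one of the 4 libraries (0.30 to 0.42).

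At the lower bound of the window, the first peak inside, at 27278074, had 88.9 ± 9.59 CPM at 24 h and 90.4 ± 5.50 in DMSO, and the nearest outside, at 27229466, had 96.9 ± 5.07 and 90.3 ± 3.15. At the upper bound the last peak inside, at 27495517, had 16.4 ± 1.99 CPM at 24 h and 14.2 ± 0.0204 in DMSO, and the nearest outside, at 27506940, had 140 ± 12.4 and 153 ± 8.26 (SD, n = 2 each).

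The peaks elsewhere whose 8 library values moved most like those of the PIPOX start peak were found by the root mean square difference of log2 CPM, each centred on its own DMSO mean. Among 20849 candidates at or above the median level, the closest were chr9:98278483-98278883 (0.0252), chr11:842496-842896 (0.0287), chr3:196466725-196467125 (0.0288), chr1:112298516-112298916 (0.0312) and chr5:179159928-179160328 (0.0330). The median candidate differed by 0.175. Since the start peak lay near its DMSO level, peaks chosen for likeness to it do so by the choice itself. Their log2 changes at 24 h were between -0.08 and -0.02.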

How the data were processed

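H3K27ac ChIP-seq of Rh30 cells was analysed in 8 libraries. The deposited values are raw counts per peak window over one common peak set, per the file headers. The megabase's windows span 400 bases, so levels compare per length. Trimmomatic 0.32 and, with no version, Bowtie2, MACS2, DiffBind and DESeq2 are named per the submitters' processing notes, as are the builds hg19 and dm3. The libraries used for peak calling and any spike-in are not given in the sources used here. A change shared by all peaks cannot be seen after scaling. Whether starts count from 0 or 1 is not stated.

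The columns end in A or B and the labels in replicate numbers, so libraries are known by group only; 0 columns had no group. Nothing states that libraries came from separate cultures, so p-values may measure technical spread. Within groups, counts differed beyond sampling noise (chi-square per degree of freedom from 1.06 to 1.21 over all peaks, and from 1.61 to 3.65 in peaks with over 1000 counts in the 2 libraries together), and no library was treated as deposited again.

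The test was edgeR's quasi-likelihood test (edgeR 4.0.16, R 4.3.3) with filterByExpr (minimum count 10, minimum total 15), TMM scaling, a robust fit of the 4 groups, and Benjamini-Hochberg adjustment over 41791 peaks, called at 0.05. Standard errors (SE) were derived as the absolute log2 change divided by the square root of edgeR's F statistic. The spread is shared across peaks (median prior degrees of freedom 182), so standard errors rest little on a peak's own libraries. Other scalings, no filter, DESeq2 1.42.0, fits of 2 groups and leaving out each library were tried, and, chosen after seeing the data, the column letter as a block.

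The members and lists were chosen with earlier results of these data known. Named peaks were those of the gene body, the 5 lowest and 3 highest others of the window by 24 h change at or above the median level, and the called peaks of the remaining megabase. Genes of sarcosine and pipecolate metabolism were listed, but peaks could not be assigned to them without an hg19 annotation.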

Additional observations from a re-analysis of the deposited data

How the results depend on the processing

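The columns carry letters and not the replicate numbers of the labels, so no pairing was assumed. Libraries of the same letter did not deviate together (correlations of the B minus A differences between groups from -0.03 to 0.05 over all peaks tested). A replicate block by column letter, chosen after seeing the data, gave 537, 960 and 3565 calls at 2 h, 4 h and 24 h over all peaks and 6, 6 and 10 around PIPOX; of the named peaks it changed the call of 27295299 at 2 h alone (log2 change -0.36, called). Scaling by total counts or DESeq2 size factors, no filter and fits of the 2 groups compared kept every count of calls within 1.5 times its value and every call of the named peaks. DESeq2 called fewer peaks: in all 24, 79 and 485 at 2 h, 4 h and 24 h against DMSO (512, 934 and 3488 in edgeR), 55 for 24 h against 2 h and 3 for 24 h against 4 h; around PIPOX 2, 1 and 6; and in the remaining megabase 0 at 2 h and 1 at 24 h. DESeq2 size factors within edgeR did not lower these counts by this much; the cause was not tested. With 1 library left out, calls over all peaks numbered 119 to 303 at 2 h, 332 to 480 at 4 h and 1652 to 1945 at 24 h against DMSO, 530 to 993 for 24 h against 2 h, 82 to 258 for 24 h against 4 h and 0 to 1 for 4 h against 2 h. Around PIPOX they numbered 3 to 4, 4 to 6 and 8 to 8, with 3 at 2 h without DMSO library A, DMSO library B or 2 h library B. In the remaining megabase they numbered 1 to 1, 1 to 1 and 2 to 3. In these fits a lone library is assumed to vary like the other groups, and fewer samples enter. The summed log2 change around PIPOX at 24 h was -0.29 and ranged from -0.32 to -0.27; summing the gene body peaks alone gave -0.11 at 4 h and -0.094 at 24 h. The window's share of the megabase at 24 h differed from DMSO by -3.62 percentage points (-3.94 to -3.30 with a library left out). No named peak changed sign at a time when it was called, under the alternatives tried. Log2 changes that were not called did change sign with a library left out, such as 27522010 at 4 h (-0.33; 0.03 without DMSO library B), 27418591 at 2 h (-0.13; 0.01 without DMSO library A) and 27074155 at 2 h (0.03; -0.24 without 2 h library A).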
